A study of Mus musculus with 12 samples.

Results

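Translation initiation factor genes were examined in inguinal white adipose tissue (iWAT) of mice, at RT and after 24 h of cold exposure. The members were chosen by symbol alone, as the rows that begin with *Eif1* to *Eif6*, without the eIF2 kinases (*Eif2ak1* to *Eif2ak4*). This gave 49 of the 14159 listed genes, of which 48 reached a mean of 10 normalized counts and were tested. *Eif3j1*, with 1.85 to 8.66 normalized counts in the 12 libraries, fell under this filter.

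Initiation factors bring the ribosome to the start codon of an mRNA. eIF2 carries the initiator tRNA as a complex with GTP, eIF2B recharges eIF2 with GTP, and eIF1, eIF1A, eIF3 and eIF5 work on the small ribosomal subunit. The cap of the mRNA is bound by eIF4F, made of the cap-binding protein eIF4E, the scaffold eIF4G and the helicase eIF4A, and 4E-BPs keep eIF4E away from eIF4G until mTORC1 phosphorylates them. Phosphorylation of the alpha subunit of eIF2 blocks eIF2B and lowers initiation in general, while translation of the transcription factor ATF4 rises, which is the core of the integrated stress response. *Eif4ebp1*, encoding 4E-BP1, is known as an ATF4 target in other tissues.

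The libraries came from poly(A) RNA of whole iWAT in 4 groups of 3 mice each on a C57BL/6 background. Atf4AKO mice carried floxed *Atf4* and the adipocyte-specific *Adipoq*-Cre, and Atf4WT mice were their floxed littermates without this knockout; each genotype was kept at RT or exposed to cold for 24 h. The ages of these mice are not given in the labels. In bulk tissue, fewer cells of a type and less RNA per cell cannot be told apart.

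The libraries held 25719476 to 29105147 reads in the listed genes. *Atf4* itself stood at 5669, 4670.3 and 4107 normalized counts in Atf4WT iWAT at RT and at 1594, 1469.7 and 1639 in Atf4AKO iWAT at RT, and at 7644, 7511 and 5756 against 1578, 788 and 1179.8 after cold exposure, so the libraries of the 2 genotypes did not overlap. White adipocyte markers summed to 618287 to 1039110 normalized counts over the libraries, for 7 of 7 genes listed. The 6 thermogenic adipocyte markers all rose with cold exposure in both genotypes. B cell markers summed to 96.2 to 3976 normalized counts in Atf4WT iWAT at RT and 3891 to 13526 after cold exposure (9 of 10 genes listed), but to 83.6 to 503 and 78.2 to 328 in Atf4AKO iWAT, and muscle markers (3 of 5 listed) ranged from 42.5 to 62509 over all libraries. Atf4WT RT replicate 2 held the highest muscle sum and the highest B cell sum of its group. The next highest muscle sum (22459) was in Atf4WT cold replicate 0.

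Per kb of transcript, the levels of the 48 tested members spanned from 10924 normalized counts per kb for *Eif5a*, whose product helps the ribosome along difficult stretches of peptide, to 18.9 for its paralog *Eif5a2*. *Eif1* (10374), *Eif4a1* (7178), *Eif4a2* (5249.7) and *Eif3k* (4623) followed *Eif5a* in this order by the mean over the 12 libraries. The order differed within groups at RT. *Eif1* (9280) stood above *Eif5a* (8908) in Atf4WT, and *Eif4a2* (6713) above *Eif4a1* (5748) in Atf4AKO iWAT. The eIF2B subunits were low among the members, with *Eif2b3* at 236 and *Eif2b5* at 687, and cap-binding *Eif4e* stood at 397 against 3028 for *Eif4ebp1*. The members varied little within groups: their median coefficient of variation between replicates was 6.94%, and that of all genes tested was 11.5%. Levels that lie close together in this order cannot be ranked, because transcript length came from 1 transcript a gene. For *Eif4a2* and *Eif2b3* it was the longest GENCODE transcript matched to a curated RefSeq mRNA, and for the others the listed RefSeq transcript.

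**Figure D1:**
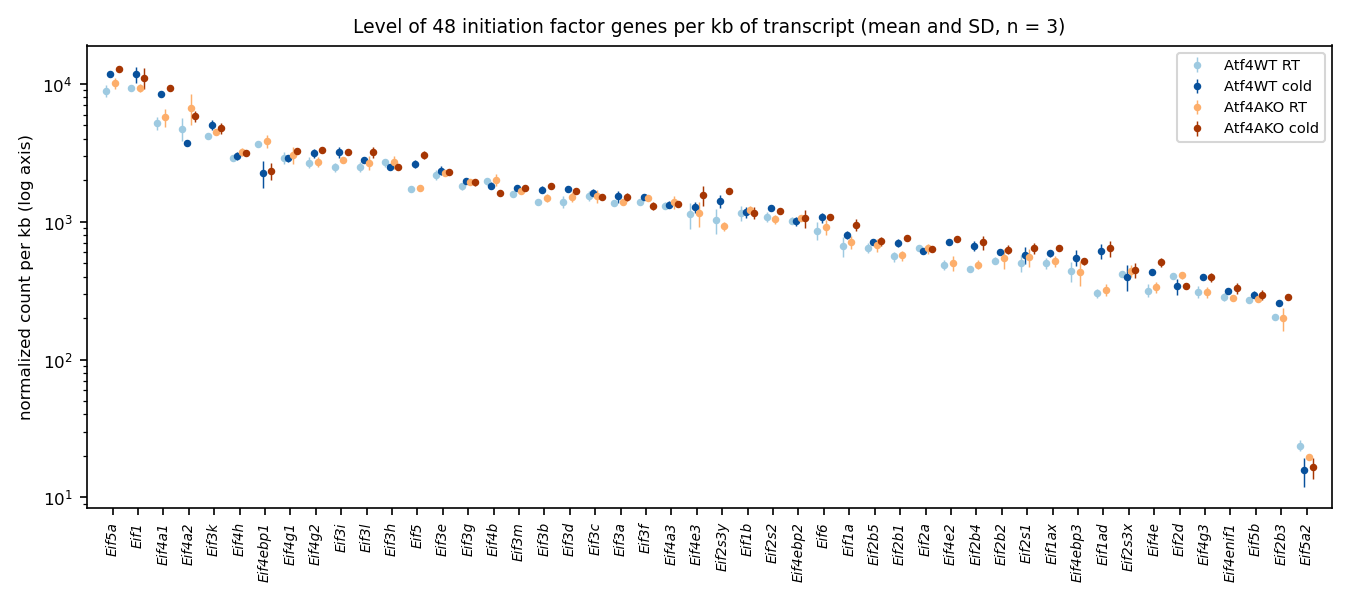
Normalized counts per kb of transcript (log axis) of the 48 tested initiation factor genes, ordered by their mean over the 12 libraries; points are group means and bars SD (n = 3). *Eif5a* (10924 per kb) lies at one end and *Eif5a2* (18.9 per kb) at the other, and the 4 groups lie close together for most genes.

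Promoter sequences were read for 39 of the 49 members from RefSeq (GRCm38.p6), as 250 bases before to 50 bases after each start, 51 promoters in all; *Eif4ebp1* was not among them. The E-box letters CACGTG, known as a binding site of the MYC and USF families, stood in 12 of the 51 promoters (23.5%) and in 9.46% of the 14298 promoters of listed genes. The letters TGATGNAAN, known for the sites bound by ATF4 with C/EBP partners, stood on either strand in 1 of the 51 (1.96%), against 2.32% of the promoters of listed genes. TGACGTCA, the full cAMP response element, stood in 0 of the 51, against 2.76%. CACGTG and TGACGTCA read the same on both strands, and no pair of these motifs overlapped in the member promoters. CACGTG stood in promoters of 10 members. Only the E-boxes of *Eif4e*, *Eif4a1* and *Eif5a* are shown, which are the 3 of these members that rose with cold exposure in both genotypes. The sites in *Eif1b*, *Eif3a*, *Eif3f*, *Eif3k*, *Eif4g1*, *Eif4h* and *Eif5a2* are not shown. The 1 ATF4-type match, in *Eif2s3x*, is shown because *Atf4* was the gene deleted. Capitals mark the motif, sequences run 5′ to 3′ along the gene, and coordinates are in GRCm38.
*Eif4e*, chr3:138527032-138527053, + strand: ccagcgacCACGTGatcacttt
*Eif4e*, chr3:138527196-138527217, + strand: acgtccgtCACGTGggcaggag
*Eif4a1*, chr11:69672599-69672620, − strand: cgcctccgCACGTGtaaaggtg
*Eif5a*, chr11:69920795-69920816, − strand: tgcgcggcCACGTGaggtgggg
*Eif5a*, chr11:69921447-69921468, − strand: ggcggggtCACGTGtgtgcgtc
*Eif2s3x*, chrX:94212732-94212756, − strand: cgccatcaTTTTCATCAggtctatg
The *Eif2s3x* match is on the other strand of the gene, so its capitals are the reverse complement of the motif. A match describes the letters of these windows and is not a measured binding site. CACGTG stood in the promoters of 3 of the 11 members that rose with cold exposure in both genotypes, all 11 of which had a promoter sequence, and in 7 of the 28 other members that had one.

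Cold exposure against RT asks which initiation factors change as iWAT turns to thermogenesis. In Atf4WT iWAT, 16 of 48 members passed an adjusted p-value of 0.05 (14 rose and 2 fell), a share of 33.3% where 31.9% of all 13404 genes tested passed. The directions were uneven, since 29.2% of the members rose against 17% of all genes, and 2 members fell where 14.9% of all genes did. In Atf4AKO iWAT, 14 members rose and 2 fell as well, where 14.8% of all genes rose, 11% fell and 25.9% passed either way. The median log2 fold change of the members was 0.19 in Atf4WT and 0.20 in Atf4AKO iWAT, and that of all genes was 0.0026 and −0.03. Most of the changes were small: by the rule of the study (fold change over 1.5 and unadjusted p-value under 0.05), 3 members were higher and 2 lower in Atf4WT iWAT, where 21.2% of all genes passed, and 6 were higher and 1 lower in Atf4AKO iWAT, where 17.2% passed. Fitted on only the 2 groups compared, limma gave 13 calls in Atf4WT and 12 in Atf4AKO iWAT in place of 16 each. Of all genes, 26.5% and 18.9% passed in this fit, in place of 31.9% and 25.9%. This fit lost *Eif2s3y*, *Eif3d*, *Eif3k* and *Eif5a2* in Atf4WT (adjusted p = 0.0544 to 0.0904) and *Eif1ax*, *Eif3b*, *Eif4b* and *Eif5a* in Atf4AKO iWAT (adjusted p = 0.0505 to 0.0678).

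Markers of other cells were summed at RT and after cold exposure. The 4 fibroblast markers summed to 41142 to 51849 normalized counts at RT and 12218 to 32194 after cold exposure in Atf4WT iWAT, and to 38478 to 60812 and 9361 to 31007 in Atf4AKO iWAT, without overlap; 0 of the 4 passed the test in Atf4WT and 1 fell in Atf4AKO iWAT. Macrophage markers (6 of 7 listed) summed to 18454 to 25779 and 10829 to 27818 in Atf4WT and to 16648 to 31301 and 3715 to 22056 in Atf4AKO iWAT, with overlap. The part of these cells in the changes of the members was not tested.

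Of the 14 members that rose in each genotype, 11 were shared (78.6% of each). Over all genes, 66.5% of the Atf4WT and 76.1% of the Atf4AKO rises were shared. Calls in opposite directions held for 0 members and were not counted over all genes. The 11 were *Eif1ad*, *Eif2b1*, *Eif2b4*, *Eif2s3y*, *Eif3b*, *Eif4a1*, *Eif4e*, *Eif4e2*, *Eif4g3*, *Eif5* and *Eif5a*. *Eif4ebp1* fell in both. The groups did not overlap, with cold exposure higher, for 25 members in Atf4WT (23.9% of all genes) and 19 in Atf4AKO iWAT (21.7%). All reads of the members made up 0.741% ± 0.0102 of the listed reads in Atf4WT iWAT at RT and 0.826% ± 0.0214 after cold exposure, and 0.771% ± 0.0112 and 0.822% ± 0.0164 in Atf4AKO iWAT (SD, n = 3), without overlap between RT and cold exposure.

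**Figure D2:**
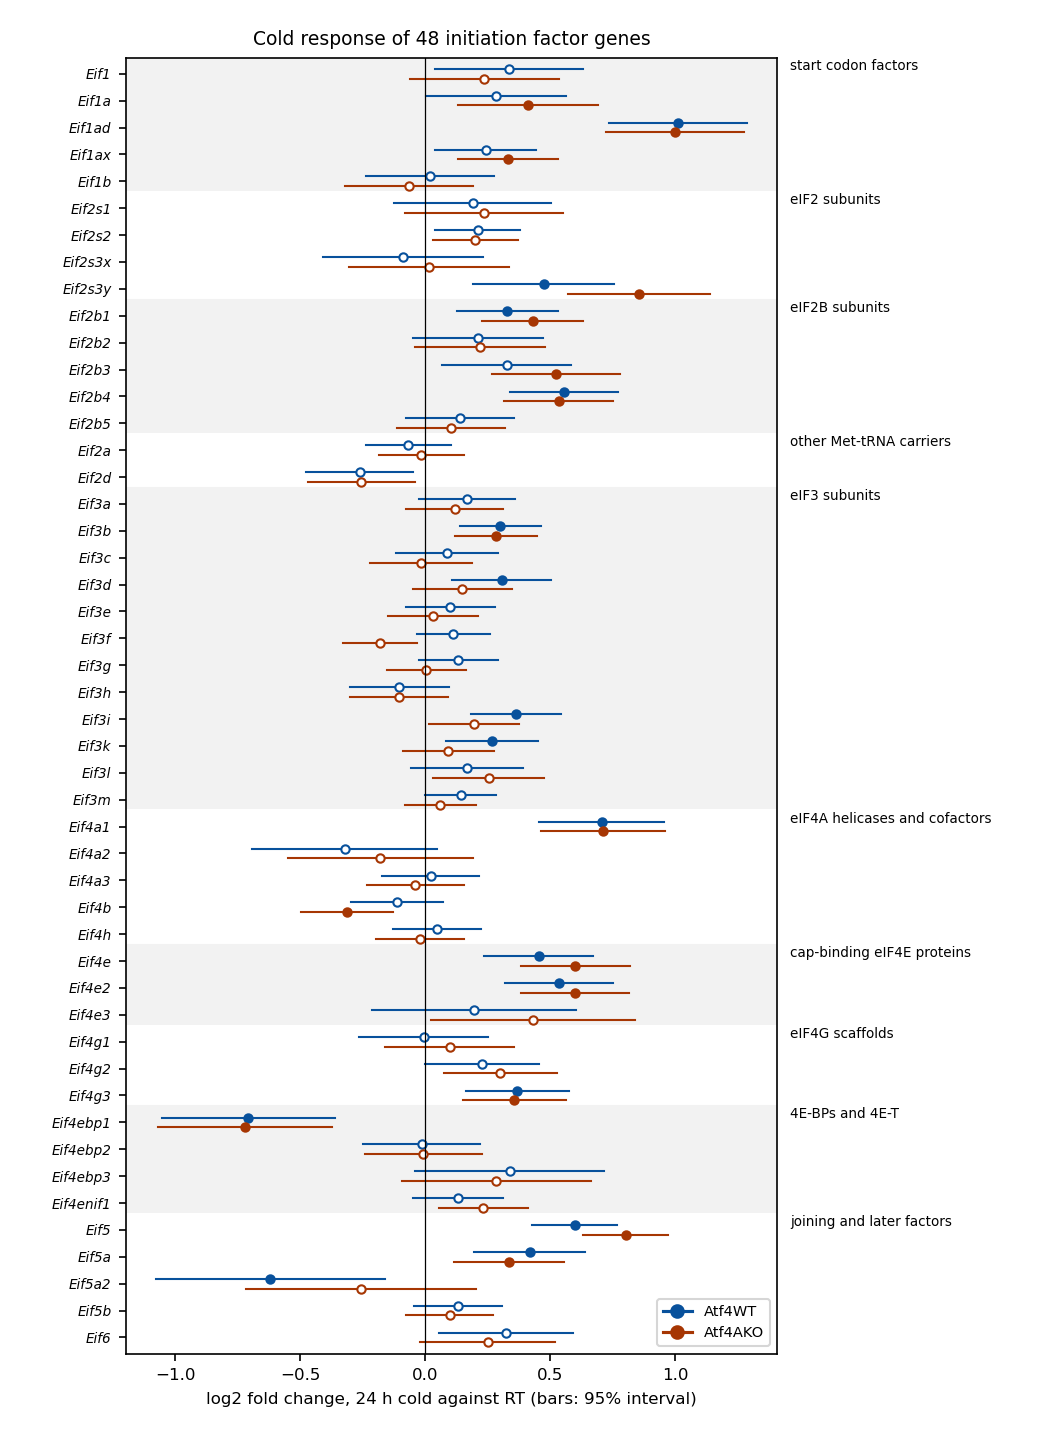
Log2 fold change of 48 initiation factor genes after 24 h of cold exposure against RT, with 95% intervals, in Atf4WT (blue) and Atf4AKO iWAT (brown), grouped by role; filled points have an adjusted p-value under 0.05. *Eif1ad*, *Eif4a1* and *Eif5* lie far to the right and *Eif4ebp1* to the left in both genotypes, while most eIF3 subunits lie near 0.

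*Eif1ad*, grouped with the start codon factors by its symbol alone, had the highest fold change of all members. Its product carries an eIF1A-like domain and is known in maturation of the small ribosomal subunit. It stood at 826, 774 and 720.4 normalized counts at RT and 1615, 1733 and 1352 after cold exposure in Atf4WT iWAT, and at 868, 860.3 and 721 and 1525, 1898 and 1487 in Atf4AKO iWAT. Every library after cold exposure lay above every library at RT, with a 2.02-fold rise in Atf4WT (log2 fold change 1.01, SE 0.13, adjusted p = 0.000327) and a 2.00-fold rise in Atf4AKO iWAT (adjusted p = 0.000389). *Eif1ad* shares 428 bp of exon with *Banf1* on the other strand; *Banf1* was at 1567 ± 149 normalized counts at RT and 1839 ± 229 after cold exposure in Atf4WT iWAT (SD, n = 3), and the part of shared reads in the value of *Eif1ad* was not tested. *Eif1ax* and *Eif1a*, encoding eIF1A, rose in Atf4AKO iWAT (log2 fold change 0.33 and 0.41, adjusted p = 0.0219 and 0.0353), and had values of 0.24 and 0.28 in Atf4WT iWAT that did not pass. These close copies share sequence, so reads that could not be placed uniquely are missing from both. The call of *Eif1ax* was lost without Atf4AKO RT replicate 2 or Atf4AKO cold replicate 1 (adjusted p = 0.0705 to 0.0788) and that of *Eif1a* without Atf4AKO RT replicate 1 or 2 or Atf4AKO cold replicate 0 or 1 (adjusted p = 0.0634 to 0.118) and with scaling to the 75th percentile (adjusted p = 0.0518). *Eif1*, which guards start codon choice, gave 0.33 and 0.24 and did not pass in either genotype.

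Of the eIF2 subunits, which hold the initiator tRNA, 1 of 4 rose in each genotype (17% and 14.8% of all genes rose). It was the Y-linked gamma subunit gene *Eif2s3y*. *Eif2s3y* stood at 1774, 1571 and 2313 normalized counts at RT and 2845, 2609 and 2321 after cold exposure in Atf4WT iWAT, and at 1849.8, 1612 and 1627 and 3118, 3007 and 3069 in Atf4AKO iWAT. Atf4WT RT replicate 2, the library with the highest muscle marker sum, came just under the lowest cold library of its genotype. The Atf4AKO groups were far apart. The log2 fold change was 0.47 (SE 0.13, adjusted p = 0.0177) in Atf4WT and 0.86 (adjusted p = 0.00108) in Atf4AKO iWAT, and the difference between them did not pass (adjusted p = 0.746). In Atf4WT iWAT this call was lost without Atf4WT RT replicate 0 or 1 or Atf4WT cold replicate 0 (adjusted p = 0.0590 to 0.0694), and also with a score of B and T cell markers as a covariate, where the log2 fold change was 0.23 (adjusted p = 0.473).
The X-linked copy *Eif2s3x* was at 1527 ± 76.8 and 1455 ± 317 normalized counts in Atf4WT and at 1609 ± 165 and 1627 ± 203 in Atf4AKO iWAT, at RT and after cold exposure (SD, n = 3), and did not pass (log2 fold change −0.090 and 0.013). The ratio of *Eif2s3y* to *Eif2s3x* ran from 0.928 to 1.59 in the libraries at RT and from 1.28 to 2.38 after cold exposure. As a mean log2 ratio it moved by 0.56 in Atf4WT (exact permutation p = 0.2) and by 0.84 in Atf4AKO iWAT (exact permutation p = 0.1, the smallest p-value that 3 libraries against 3 allow, two-sided), and no ratio passed after adjustment over 20 ratio comparisons, whose lowest adjusted p-value was 0.2. *Eif2s1*, encoding the alpha subunit that stress kinases phosphorylate, had log2 fold changes of 0.19 (95% interval −0.13 to 0.50) and 0.23 (−0.080 to 0.55), and *Eif2s2*, the beta subunit, 0.21 and 0.20 (adjusted p = 0.0597 and 0.0802). Phosphorylation itself is not measured by RNA-seq.

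The eIF2B complex, the exchange factor that phosphorylated eIF2 blocks, has 5 subunit genes here. In Atf4WT iWAT 2 of them rose (17% of all genes rose), in Atf4AKO iWAT 3 rose (14.8%), and 0 fell in either. *Eif2b4*, the delta subunit, stood at 909.6, 952 and 887 normalized counts at RT and 1433, 1388 and 1224 after cold exposure in Atf4WT iWAT, and at 982, 1066 and 916 and 1306, 1613 and 1381 in Atf4AKO iWAT. RT and cold libraries were fully apart in both genotypes, and the log2 fold change was 0.55 (SE 0.10, adjusted p = 0.00219) and 0.53 (adjusted p = 0.00312). *Eif2b4* shares 204 bp with *Snx17* on the other strand, whose level was 2672 ± 167 at RT and 2862 ± 266 normalized counts after cold exposure in Atf4WT iWAT (SD, n = 3). *Eif2b1*, the alpha subunit, rose by a log2 fold change of 0.33 and 0.43 (adjusted p = 0.0195 and 0.00649), a call lost in Atf4WT iWAT without Atf4WT RT replicate 0 or 2 or Atf4WT cold replicate 0 or 1 (adjusted p = 0.0598 to 0.0688). *Eif2b3*, the gamma subunit, rose in Atf4AKO iWAT (0.52, adjusted p = 0.00809) and came close in Atf4WT iWAT (0.32, adjusted p = 0.0537). *Eif2b2* (0.21 and 0.22) and the catalytic epsilon subunit gene *Eif2b5* (0.14 and 0.10) did not pass in either genotype. *Eif2a* and *Eif2d*, whose products can deliver tRNA without eIF2, did not pass either, with log2 fold changes of −0.068 and −0.017 for *Eif2a* and −0.26 and −0.26 for *Eif2d*; the *Eif2d* groups were nevertheless apart in both genotypes, at 792 to 879 normalized counts at RT and 585 to 752 after cold exposure.

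eIF3 is the large scaffold on the small subunit, and 12 of its 13 listed genes were tested. In Atf4WT iWAT 4 rose and 0 fell (33.3%, against 31.9% of all genes called), and in Atf4AKO iWAT 1 rose and 0 fell (8.33%, against 25.9%). The rises were all small. *Eif3b*, a core subunit, rose in both genotypes by 0.30 (adjusted p = 0.0111) and 0.28 (adjusted p = 0.0182), the latter lost without Atf4AKO RT replicate 0 or 2 or Atf4AKO cold replicate 1 (adjusted p = 0.0554 to 0.0617). *Eif3i* (0.36, adjusted p = 0.00708), *Eif3d* (0.31, 0.0242) and *Eif3k* (0.27, 0.0310) rose in Atf4WT iWAT. The call of *Eif3d* was lost without Atf4WT RT replicate 2 or Atf4WT cold replicate 0 or 1 (adjusted p = 0.0587 to 0.0824) and that of *Eif3k* without Atf4WT RT replicate 0 or 2 or Atf4WT cold replicate 0 or 1 (adjusted p = 0.0767 to 0.0980) and with the B and T cell score as a covariate (0.37, adjusted p = 0.0881). *Eif3d* shares 2151 bp with an antisense gene that has no row here, and the part of shared reads was not tested. In Atf4AKO iWAT the same 3 genes had values of 0.20, 0.15 and 0.092, and the difference between the genotypes did not pass for any of them (adjusted p of at least 0.956). The other 8 tested subunits had log2 fold changes of −0.10 (*Eif3h*) to 0.17 (*Eif3l*) in Atf4WT iWAT, and −0.18 (*Eif3f*) to 0.25 (*Eif3l*) in Atf4AKO iWAT.

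Of the helicase genes of eIF4F, which unwinds the leader of the mRNA, *Eif4a1* rose in both genotypes and *Eif4a2* did not pass in either. *Eif4a1* (chr11:69666936-69672423, − strand) stood at 10127, 9400.3 and 8104 normalized counts at RT and 15643, 14633 and 14591 after cold exposure in Atf4WT iWAT. In Atf4AKO iWAT it stood at 9942, 11827 and 8822 and 16599, 16282 and 16837. All cold libraries lay above all RT libraries, a 1.63-fold rise in Atf4WT (log2 fold change 0.70, SE 0.11, adjusted p = 0.00123) and 1.64-fold in Atf4AKO iWAT (adjusted p = 0.00147). The close paralog *Eif4a2* (chr16:23107444-23114136, + strand) stood at 11010.3, 11801 and 15557 at RT and 10072, 9784 and 10496 after cold exposure in Atf4WT iWAT, and at 15384, 15734 and 23421 and 15101, 17393 and 14842 in Atf4AKO iWAT. Its cold values lay below the RT values in Atf4WT iWAT and overlapped them in Atf4AKO iWAT, and its log2 fold change with cold exposure did not pass (−0.32, adjusted p = 0.166, and −0.18, adjusted p = 0.455). Per kb of transcript, *Eif4a2* made up 47.5% ± 7.34 of the sum of *Eif4a1* and *Eif4a2* in Atf4WT iWAT at RT and 30.7% ± 1.20 after cold exposure, and 53.5% ± 8.89 and 38.4% ± 2.45 in Atf4AKO iWAT (SD, n = 3). These shares rest on the longest matched transcript of *Eif4a2* (2708 bp), and a shorter one would raise them. The log2 ratio of *Eif4a1* to *Eif4a2* moved by 1.03 with cold exposure in Atf4WT and 0.89 in Atf4AKO iWAT, without overlap of the groups (exact permutation p = 0.1 each, adjusted p = 0.2 over 20 ratio comparisons). Of the helicase cofactors, *Eif4b* fell in Atf4AKO iWAT, from 7081, 7642 and 8547 to 6311, 6106 and 6273 normalized counts (log2 fold change −0.31, adjusted p = 0.0198), a call lost without Atf4AKO RT replicate 2 or Atf4AKO cold replicate 1 (adjusted p = 0.0620 to 0.0642); in Atf4WT iWAT its groups overlapped at 7457, 7255 and 8091 and 6704, 6883 and 7505 (−0.11, adjusted p = 0.329). *Eif4h* (0.048 and −0.023) and *Eif4a3*, a core protein of the exon junction complex (0.021 and −0.040), did not pass.

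**Figure D3:**
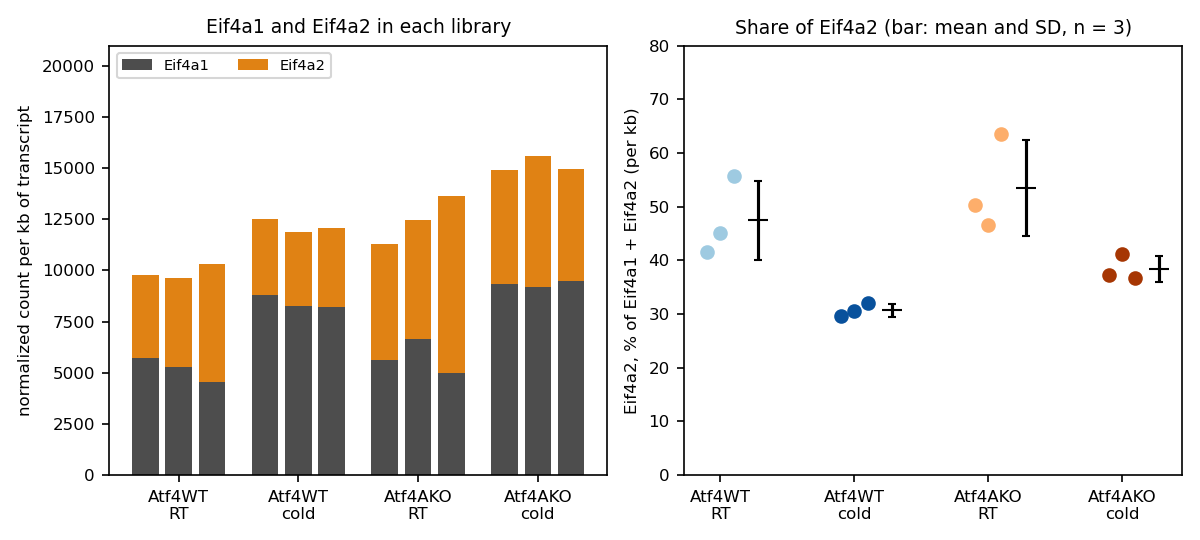
Left, normalized counts per kb of transcript of *Eif4a1* (grey) and *Eif4a2* (orange) stacked for each of the 12 libraries; right, the share of *Eif4a2* in this sum in each library, with the mean and SD (n = 3). The mean share of *Eif4a2* went from 47.5% to 30.7% with cold exposure in Atf4WT and from 53.5% to 38.4% in Atf4AKO iWAT.

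Of the 3 cap-binding genes, 2 rose in both genotypes, as did 1512 of the 13404 genes tested. *Eif4e*, the cap-binding subunit of eIF4F, stood at 1522, 1771 and 1445 normalized counts at RT and 2141, 2079 and 2246 after cold exposure in Atf4WT iWAT, and at 1761, 1770.3 and 1479.7 and 2332, 2580.4 and 2669 in Atf4AKO iWAT. Its groups were apart in both genotypes, with log2 fold changes of 0.45 (SE 0.10, adjusted p = 0.00608) and 0.60 (adjusted p = 0.00173). *Eif4e2* encodes 4EHP, a cap-binding protein that does not bind eIF4G and is known as a repressor of the mRNAs it holds. It stood at 1769, 1795 and 1534 at RT and 2555, 2448 and 2369 after cold exposure in Atf4WT, and at 1919, 1807 and 1496 and 2594, 2739 and 2533 in Atf4AKO iWAT, again fully apart (log2 fold change 0.54 and 0.60, adjusted p = 0.00253 and 0.00169). *Eif4e3*, an atypical family member, was spread within groups (2242 to 3528 at RT and 2954 to 4579 after cold exposure) and did not pass (adjusted p = 0.453 and 0.110). Of the scaffolds, *Eif4g3* rose in both genotypes by 0.37 and 0.36 (adjusted p = 0.0128 and 0.0183), from 2513 ± 252 to 3234 ± 90.9 and from 2513 ± 240.1 to 3210.1 ± 223 normalized counts (SD, n = 3). Its call was lost in Atf4WT iWAT without Atf4WT RT replicate 0 (adjusted p = 0.0544) and with the B and T cell score as a covariate (log2 fold change 0.15, adjusted p = 0.471), and in Atf4AKO iWAT without Atf4AKO RT replicate 1 or Atf4AKO cold replicate 0 (adjusted p = 0.0582 to 0.0659) and with scaling to the 75th percentile (adjusted p = 0.0584). *Eif4g1*, the main scaffold, was higher than *Eif4g3* per kb (3027 against 353 normalized counts per kb) and had log2 fold changes of −0.0076 (95% interval −0.26 to 0.25) and 0.10 (−0.16 to 0.35). *Eif4g2*, which lacks the eIF4E binding site, did not pass, with values of 0.23 (adjusted p = 0.116) and 0.30 (adjusted p = 0.0529).

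Of the 3 genes for 4E-BPs, 1 fell in both genotypes (14.9% and 11% of all genes fell), and it was the most abundant of them. *Eif4ebp1* (chr8:27260329-27276674, + strand) stood at 7455, 7494 and 6881 normalized counts at RT and 5062, 5142 and 3384 after cold exposure in Atf4WT iWAT. In Atf4AKO iWAT it stood at 6956, 8623 and 7524 and 4399, 5417 and 4217. All 6 cold libraries lay below all 6 RT libraries. *Eif4ebp1* fell with a log2 fold change of −0.71 (SE 0.16, adjusted p = 0.00665) in Atf4WT and −0.72 (adjusted p = 0.00724) in Atf4AKO iWAT. With the B and T cell score as a covariate, the Atf4WT value was −0.35 (adjusted p = 0.334), while in Atf4AKO iWAT the call held under each of the 22 alternatives. Of all genes, 13.5% passed in Atf4WT iWAT with this covariate, in place of 31.9%. The score, a mean log2 value of 20 markers, was 3.80 to 7.16 in the Atf4WT libraries at RT and 7.27 to 9.73 after cold exposure, and 3.95 to 5.27 and 3.51 to 5.04 in the Atf4AKO libraries. *Eif4ebp2* was at 1447 ± 87.8 and 1434 ± 117 in Atf4WT and 1509.7 ± 68.1 and 1510.0 ± 221 normalized counts in Atf4AKO iWAT (SD, n = 3), and its 95% intervals of −0.25 to 0.22 and −0.24 to 0.22 on the log2 scale bound any change. *Eif4ebp3*, the least abundant, had log2 fold changes of 0.34 and 0.28 (adjusted p = 0.157 and 0.246). It lies within a longer read-through gene on the same strand, so its reads are uncertain. *Eif4enif1*, encoding the eIF4E transporter 4E-T, gave 0.13 and 0.23 and did not pass. The ratio of *Eif4ebp1* to *Eif4e* in normalized counts was 4.23 to 4.90 in the Atf4WT libraries at RT and 1.51 to 2.47 after cold exposure, and 3.95 to 5.08 and 1.58 to 2.10 in the Atf4AKO libraries. The groups of this ratio did not overlap in either genotype (exact permutation p = 0.1, adjusted p = 0.2 over 20 ratio comparisons).

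Among the factors of subunit joining and later steps, *Eif5*, which makes eIF2 hydrolyse its GTP, had the smallest p-value of all members in Atf4AKO iWAT. It stood at 7296, 7043 and 6772 normalized counts at RT and 11106, 9898 and 10943 after cold exposure in Atf4WT iWAT, and at 7155, 7133 and 7037 and 11498, 12422 and 13292 in Atf4AKO iWAT. The RT libraries were tight and all lay below the cold libraries, with a 1.51-fold rise in Atf4WT (log2 fold change 0.60, SE 0.077, adjusted p = 0.000406) and a 1.74-fold rise in Atf4AKO iWAT (adjusted p = 8.43e-05). *Eif5a* rose by 0.42 (adjusted p = 0.00992) and 0.33 (adjusted p = 0.0318), the latter lost without Atf4AKO RT replicate 2 or Atf4AKO cold replicate 0 or 1 or 2 (adjusted p = 0.0501 to 0.102). Its paralog *Eif5a2* fell in Atf4WT iWAT, from 109, 118 and 131 to 57.5, 86.6 and 92.3 normalized counts (log2 fold change −0.62, SE 0.21, adjusted p = 0.0421). In Atf4AKO iWAT it went from 99.5, 99.6 and 95.6 to 87.2, 66.9 and 94.6 and did not pass (−0.26, adjusted p = 0.389). The Atf4WT call of *Eif5a2* was lost without Atf4WT RT replicate 0 or 1 or 2 or Atf4WT cold replicate 0 or 1 (adjusted p = 0.0581 to 0.137). *Eif5b*, the GTPase of subunit joining, shares 1643 bp with *Rev1* on the other strand and gave 0.13 and 0.10, and *Eif6*, which keeps the large subunit free, gave 0.32 and 0.25 (adjusted p = 0.0661 and 0.159); neither passed.

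**Figure D4:**
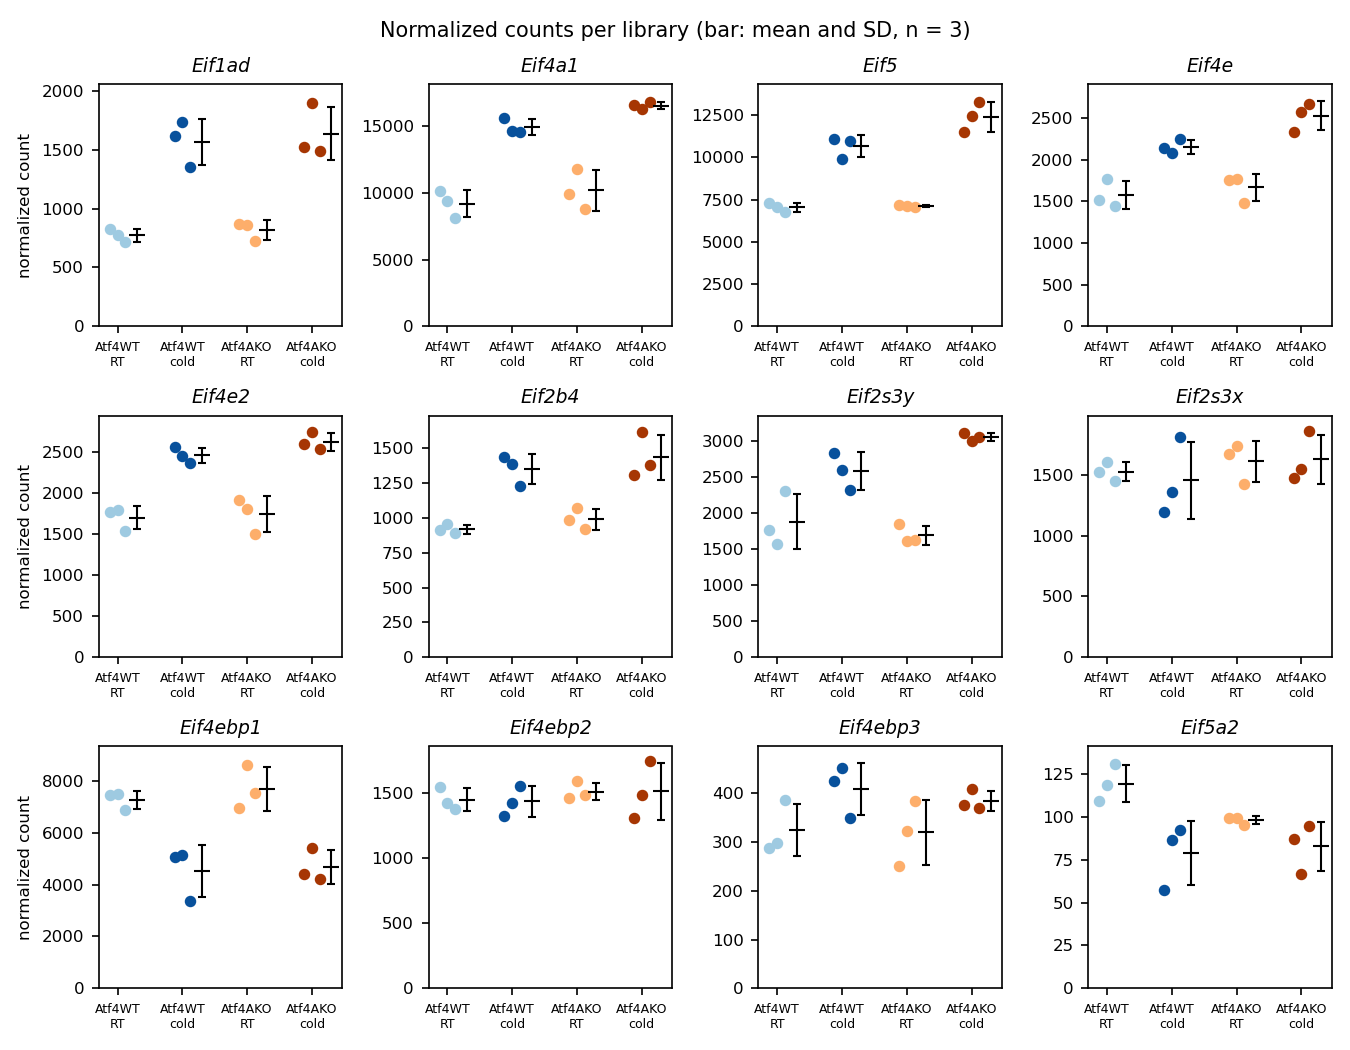
Normalized counts (linear axes from 0) of 12 initiation factor genes in each library of the 4 groups, with the mean and SD (n = 3) beside the points. *Eif1ad*, *Eif4a1*, *Eif5*, *Eif4e*, *Eif4e2* and *Eif2b4* are higher in every cold library than in every RT library of the same genotype, *Eif4ebp1* is lower in every cold library, and *Eif2s3x* and *Eif4ebp2* overlap.

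Genes that act beside these factors were counted by lists, and the genes named from these lists were named after their values were seen. Of 21 initiation regulators without an Eif symbol, 10 rose and 3 fell in Atf4WT (61.9% called, against 31.9% of all genes), and 9 rose and 2 fell in Atf4AKO iWAT (52.4%, against 25.9%). The reinitiation factors *Denr* (0.51 and 0.52) and *Mcts1* (0.33 and 0.41) and the ribosome recycling factor *Abce1* (0.58 and 0.47) rose in both genotypes, as did the RNA-binding repressor gene *Larp1* (0.45 and 0.48, log2 fold change). *Cyfip1*, a 4E-binding repressor, fell in both (−0.54 and −0.37), and so did *Paip2b* (−0.56 and −0.35), which restrains the poly(A)-binding protein. Of 9 genes of the eIF2 kinases and phosphatase, 3 rose and 0 fell in Atf4WT iWAT (33.3%), and 1 rose and 1 fell in Atf4AKO iWAT (22.2%), shares near those of all genes. The phosphatase subunit gene *Ppp1r15a*, encoding GADD34, which undoes the phosphorylation of eIF2, stood at 526, 534 and 494 normalized counts at RT and 810.5, 931 and 768 after cold exposure in Atf4WT iWAT (0.69, adjusted p = 0.00498), and at 433, 599 and 516 and 680.3, 516 and 689.8 in Atf4AKO iWAT (0.28, adjusted p = 0.169). The difference of its cold responses between the genotypes did not pass (adjusted p = 0.794). The kinase gene *Eif2ak3* (PERK) fell in Atf4AKO iWAT (−0.40, adjusted p = 0.0273) and gave −0.30 in Atf4WT iWAT (adjusted p = 0.0654), and the other 3 kinase genes did not pass. Of 9 listed mTORC1 genes, 3 rose and 1 fell in Atf4WT and 4 rose and 0 fell in Atf4AKO iWAT (44.4% each), with *Mtor* at 0.70 and 0.86. Of 11 elongation and termination genes, 2 rose and 1 fell in Atf4WT and 3 rose and 0 fell in Atf4AKO iWAT (27.3% each), which is near the share of all genes. Of 22 ATF4 targets known from other tissues, *Eif4ebp1* among them, 8 rose and 3 fell in Atf4WT (50%) and 5 rose and 4 fell in Atf4AKO iWAT (40.9%).

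Atf4AKO against Atf4WT iWAT asks whether the factors depend on adipocyte ATF4. After cold exposure, 0 of 48 members passed an adjusted p-value of 0.05 in limma, where 0.0298% of all genes (4) passed. edgeR gave 0 members, where 0.0224% of all genes passed. DESeq2 gave 1 member, *Eif4a2*, where 590 genes (4.4%) passed, 559 of them lower and 31 higher. At an unadjusted p-value under 0.05, 3 members were higher (*Eif4a2*, *Eif5* and *Eif4e*; 3.74% of all genes) and 1 was lower (*Eif3f*; 7.98% of all genes), and by the rule of the study 1 member, *Eif4a2*, was higher, where 6.4% of all genes passed in either direction and 0.358% were higher. The groups did not overlap for 10 members with Atf4AKO higher (8.68% of all genes) and 3 with Atf4AKO lower (7.84%). At RT 0 members passed, where 0.00746% of all genes did. edgeR and DESeq2 called 0 members at RT, where 0.00746% and 0.0373% of all genes passed. At an unadjusted p-value under 0.05 there was 1 member at RT, *Eif4a2*, higher in Atf4AKO iWAT, as were 0.761% of all genes, and by the rule of the study 0 members passed at RT, where 0.463% of all genes did. The median log2 difference of the members was 0.06 after cold exposure and 0.06 at RT, and that of all genes 0.05 and 0.0056. With the B and T cell score as a covariate, the median of the members after cold exposure was −0.11 and that of all genes −0.027, so the direction of both depended on this term.

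*Eif4a2* had the smallest p-value of the members in both comparisons of the genotypes. It was named singly with its small p-value already known from earlier results of these data, so the p-values below are no independent support. After cold exposure, the 3 Atf4AKO libraries (15101, 17393 and 14842 normalized counts) all lay above the 3 Atf4WT libraries (10072, 9784 and 10496), a 1.56-fold difference (log2 0.64, 95% interval 0.27 to 1.01, unadjusted p = 0.00294, adjusted p = 0.107). DESeq2 on the whole reads gave an adjusted p-value of 0.0111 with the same log2 difference of 0.64. At RT the groups overlapped, since Atf4WT RT replicate 2 at 15557 lay above 1 Atf4AKO library (log2 0.50, 95% interval 0.13 to 0.87, unadjusted p = 0.0132, adjusted p = 1.000). That Atf4WT library also held the highest muscle marker sum, and the part of its cell content in this value was not tested. *Eif4a2* overlaps *Rfc4* by 194 bp on the other strand, which was at 149.7 ± 22.3 to 228.8 ± 12.7 normalized counts over the 4 group means (SD, n = 3), and 6 small RNA genes on its own strand by 10 to 178 bp. Of the members that rose in both genotypes, *Eif4a1* shares 143 and 144 bp with 2 small RNA genes on its own strand. *Eif5* shares 127 bp and *Eif4e* 61 bp with 1 each. The part of shared reads in the values of *Eif4a2* and of these genes was not tested. *Eif4ebp1*, the known ATF4 target, differed little between the genotypes: the log2 difference was 0.063 (95% interval −0.28 to 0.41, adjusted p = 0.910) after cold exposure and 0.077 (−0.27 to 0.42) at RT, and its libraries overlapped. With the B and T cell score the difference after cold exposure was −0.37 (adjusted p = 0.999). Among the 22 ATF4 targets from other tissues, 1 was lower in Atf4AKO iWAT after cold exposure, *Atf5* (−0.97, adjusted p = 0.0156). By the rule of the study 5 were lower, where 6.04% of all genes were, namely *Atf5*, *Mthfd2* (−2.08, adjusted p = 0.0648), *Slc7a5* (−1.27), *Aldh18a1* (−1.15) and *Trib3* (−0.82), which were named after their values were seen. *Mthfd2*, a mitochondrial enzyme of one-carbon metabolism, stood at 261, 536 and 391 normalized counts in Atf4WT and 141, 59.0 and 83.8 in Atf4AKO iWAT after cold exposure, without overlap.

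The remaining members named by their p-values differed by less. After cold exposure, *Eif3f* stood at 3685, 3805 and 3844 normalized counts in Atf4WT and 3346, 3057 and 3477 in Atf4AKO iWAT (log2 −0.20, adjusted p = 0.224), without overlap. *Eif5* had a log2 difference of 0.22 (adjusted p = 0.252), also without overlap. At RT, *Eif3i* (0.17) and *Eif4h* (0.15) had the smallest p-values after *Eif4a2*, both with an adjusted p-value of 1.000. Of the 48 members, 40 (83.3%) had a positive log2 difference at RT and 32 (66.7%) after cold exposure, and of all genes 51.8% and 59.3%. All eIF2 and eIF2B subunits lay between −0.14 (*Eif2s3y*) and 0.13 (*Eif2s1*) at RT and between −0.065 (*Eif2s2*) and 0.25 (*Eif2s3y*) after cold exposure on the log2 scale.

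**Figure D5:**
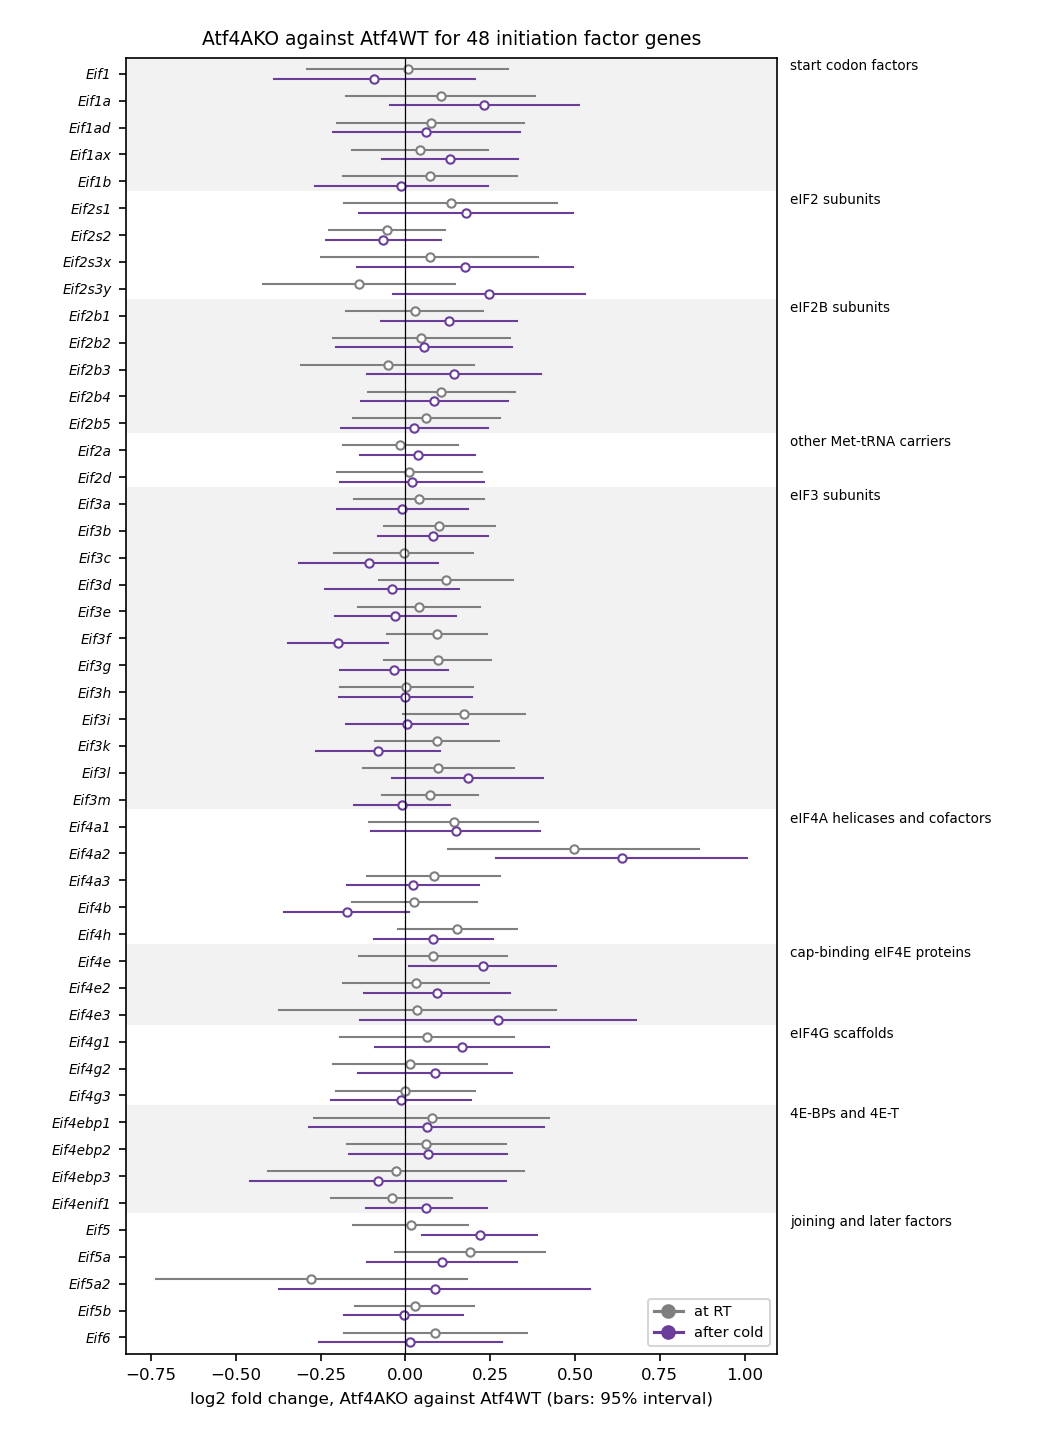
Log2 fold change of 48 initiation factor genes in Atf4AKO against Atf4WT iWAT with 95% intervals, at RT (grey) and after cold exposure (purple), grouped by role; open points did not pass an adjusted p-value of 0.05, which holds for all of them. *Eif4a2* lies apart on the right, at 0.50 at RT and 0.64 after cold exposure.

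Whether the cold response of a member differed between the genotypes was tested as an interaction, and 0 of 48 passed, as did 0 of all genes (0% of 13404). At an unadjusted p-value under 0.05, 1 member remained, *Eif3f*, where 6.92% of all genes did. By edgeR and DESeq2 0 members passed after adjustment, where 0% and 0.985% of all genes did. *Eif3f*, an eIF3 subunit, stood at 3419, 3465 and 3606 normalized counts at RT and 3685, 3805 and 3844 after cold exposure in Atf4WT iWAT, but at 3665, 3904 and 3634 and 3346, 3057 and 3477 in Atf4AKO iWAT. Cold libraries were all higher in Atf4WT and all lower in Atf4AKO iWAT, a difference of −0.29 on the log2 scale (95% interval −0.50 to −0.086, unadjusted p = 0.00988, adjusted p = 0.489). The share of all genes with such opposite orders was not counted. The next in order were *Eif2s3y* (0.38, adjusted p = 0.746) and *Eif5* (0.20, adjusted p = 0.836). For *Eif4ebp1* the difference was −0.014 (95% interval −0.50 to 0.48) and for *Eif4a2* 0.14 (−0.38 to 0.67). Of the 12 tested eIF3 subunits, 11 had a negative difference, as did 43.5% of all genes, and 1 of them, *Eif3f*, had an unadjusted p-value under 0.05. Their median was −0.093, and the median over all members was −0.011 and over all genes 0.035. The genotype comparisons and the cold comparisons share libraries, so their values are not independent of each other.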

How the data were processed

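Per the labels and the methods of the study, polyadenylated RNA of iWAT was made into strand-specific DNBSEQ libraries. The authors used SOAPnuke for read filtering, STAR for alignment to mm10, featureCounts for reads mapped uniquely, and pyDESeq2 for normalization; versions and a strand setting are not given in the sources used here. The deposited values are a signal, the reads of each gene divided by a size factor. Division by the minimum of a library, which is worth 1 read, returned whole reads (largest deviation 0.000313 reads), used only in alternatives.

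Limma 3.58.1 (R 4.3.3) was fitted to log2(normalized count + 1) for the 13404 genes that averaged 10 or more normalized counts, with 4 group means, a variance trend and Benjamini-Hochberg adjustment over all of them; 755 genes fell under the filter. Fold changes are on the log2(normalized count + 1) scale, so those of low genes are understated. "Rose" and "fell" mean an adjusted p-value under 0.05. The rule of the study, a fold change over 1.5 with an unadjusted p-value under 0.05, was counted beside it. Whole reads were tested with edgeR 4.0.16 and DESeq2 1.42.0. Ratios were compared with two-sided exact permutation tests. Procedures were tested on simulated data. Positions, lengths and overlaps came from GENCODE M21 (GRCm38). The members and lists were chosen with earlier results of these data known. Named with values in every library were *Eif4ebp1*, *Eif4a2*, per comparison up to 6 rises and 6 falls that passed without overlap, and otherwise the 3 smallest p-values; the subunits of eIF2, eIF2B and eIF4F and the 4E-BPs were all named. The labels call the libraries biological replicates.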

Additional observations from a re-analysis of the deposited data

Results flagged for a closer look

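*Eif3f* was flagged by the order of its libraries: all 3 Atf4WT cold libraries lay above the Atf4WT RT libraries, and all 3 Atf4AKO cold libraries lay below the Atf4AKO RT libraries. Of the 13404 genes tested, 3200 had the first order and 2672 the second. How many had both was not counted. The difference of the cold responses was −0.294 on the log2 scale in limma (unadjusted p = 0.00988, adjusted p = 0.489 over all genes), so it did not pass the correction. The cold response passed in neither genotype (log2 fold change 0.11, adjusted p = 0.226, and −0.18, adjusted p = 0.0666).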

How the results depend on the processing

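The direction and the call of most results held. Over the 30 named changes with cold exposure that passed (without those of *Eif4ebp1*, given apart), 480 alternative values were computed, of which 430 kept the call and 50 lost it, and 0 turned direction. By the rule of the study, the counts were 5 members in Atf4WT and 7 in Atf4AKO iWAT with cold exposure and 1 between the genotypes after cold exposure, in place of 16, 16 and 0. Of all genes, 21.2%, 17.2% and 6.4% passed this rule. Scaling to the 75th percentile lowered the median of the members in Atf4AKO iWAT from 0.20 to 0.14, with 12 rises and 4 falls in place of 14 and 2, and that of all genes from −0.03 to −0.092. Of all genes, 1715 rose and 1974 fell under this scaling, in place of 1988 and 1479. With the B and T cell score as a covariate, the medians of the members were 0.27 (cold exposure, Atf4WT), −0.11 (genotypes after cold exposure) and −0.14 (interaction). Those of all genes were −0.022, −0.027 and −0.026. In Atf4WT iWAT 14 members rose and 1 fell with cold exposure under this term, in place of 14 and 2. Of all genes, 1347 rose and 469 fell (13.5% called), in place of 2273 and 2000 (31.9%). *Eif4ebp1* was at −0.35 in Atf4WT iWAT (adjusted p = 0.334) and at −0.37 between the genotypes after cold exposure (adjusted p = 0.999). The cause was not tested. DESeq2 called 1 member between the genotypes after cold exposure, *Eif4a2* (0.64), where it called 4.4% of all genes. 

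Leaving out each library in turn gave 11 to 19 calls with cold exposure in Atf4WT and 11 to 17 in Atf4AKO iWAT, and 0 between the genotypes and for the interaction. The share of all genes called ran from 22.5% to 33.1% in Atf4WT and from 16.5% to 26.5% in Atf4AKO iWAT. Between the genotypes after cold exposure it ran from 0.0149% to 3.84%. The ranges of the median of the members were 0.16 to 0.25, 0.12 to 0.22, 0.02 to 0.07 (after cold exposure), 0.01 to 0.11 (RT) and −0.07 to 0.04 (interaction). *Eif4ebp1* ranged from −0.81 to −0.51 in Atf4WT and −0.83 to −0.64 in Atf4AKO iWAT with cold exposure, from −0.13 to 0.17 and −0.0073 to 0.15 between the genotypes after cold exposure and at RT, and from −0.21 to 0.091 for the interaction. *Eif4a2* ranged from −0.42 to −0.17 in Atf4WT and −0.29 to 0.017 in Atf4AKO iWAT with cold exposure, from 0.57 to 0.68 and 0.30 to 0.65 between the genotypes, and from −0.0074 to 0.34 for the interaction.

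Whether the replicate numbers of the labels pair the libraries could not be settled. Correlations of same-numbered deviations ran from −0.189 to 0.389, and 2 to 4 of 6 libraries correlated best with their own number. Between the genotypes, replicates 1 and 2 gave 0.305 to 0.389, and replicate 0 gave −0.145 after cold exposure and −0.049 at RT. With a replicate block, 21 members passed with cold exposure in Atf4WT (18 rose, 3 fell) and 19 in Atf4AKO iWAT (17 and 2), and 0 between the genotypes. Of all genes, 36.2% and 30.8% passed with cold exposure under this block, and 1.41% between the genotypes after cold exposure. With 3 libraries a group, a member that did not pass may still have changed. Where an interval is given above, the values inside it were not excluded for that gene and comparison.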
